A study of Mus musculus with 2 samples.

Results

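Transcripts of 7 GABA-A receptor subunit genes, the alpha subunits Gabra2, Gabra3, Gabra4 and Gabra5, the beta subunits Gabrb1 and Gabrb2 and the delta subunit Gabrd, were followed across cell classes of the mouse hippocampus. The genes were taken as a fixed list of symbols, and all 7 were found among the 32285 genes counted. They were measured in nuclei isolated from the hippocampus of a heterozygous Capza2 knockout (CAPZA2+/-, here Het) and of a wild type (WT), with 1 droplet library of 3' transcript ends per genotype. The study set out to compare cell populations between these genotypes, and Capza2 encodes a subunit of the actin filament capping protein. Age, strain, sex and the deleted part of Capza2 are not given in the labels, and neither library has a replicate, so every difference given here is between 2 libraries and carries counting error only.

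GABA-A receptors are chloride channels opened by GABA, each assembled from subunits of several families, most often alpha and beta subunits with a gamma or a delta subunit. The alpha subunit sets much of the receptor's drug sensitivity and its place on the neuron, and the delta subunit is known from receptors outside the synapse that respond to low ambient GABA. In the hippocampus, alpha 5 receptors are known for tonic inhibition of pyramidal cells and delta receptors with alpha 4 for that of dentate granule cells.

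The Het library held 62702888 unique molecular identifiers (UMIs, each standing for 1 captured transcript) in 7801 barcodes, and the WT library held 58701532 in 6512. After barcodes with under 500 genes, over 5% mitochondrial UMIs or a doublet call were removed, 6795 Het nuclei with a median of 5770 UMIs and 5907 WT nuclei with a median of 6527 UMIs remained. The filter on genes and mitochondrial UMIs took 7.56% of Het and 1.35% of WT barcodes, and 9 barcodes were shared by the nuclei kept. Capza2 stood at 67.5 CPM (a gene's UMIs per 1000000 UMIs) in the Het library and 87.0 CPM in the WT library. Because the deleted part is not known, that level is no check of the genotype. Transcripts of Ttr, a choroid plexus gene, averaged 1.63 UMIs per nucleus in the Het library and 0.438 in the WT library.

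Nuclei were clustered together with every GABA-A subunit gene kept out of the clustering genes, so the members did not define the classes they are compared across. Classes were named after markers and are called "like" a cell type for that reason. The dentate granule-like class held 2049 Het and 1472 WT nuclei, the CA1-like class 802 and 907, and the CA3-like class 214 and 203. The class like subicular, entorhinal or cortical excitatory neurons held 435 Het and 600 WT nuclei, and the inhibitory-like class held 323 and 415. CA2-like nuclei (186 Het, 238 WT), oligodendrocyte precursor-like nuclei (178 and 177) and an excitatory cluster led by Fn1 and Rxfp1 (cluster 10, 128 and 273) were too few for a ratio between libraries, so levels only are given for them. Microglia-like nuclei (327 Het, 237 WT) and oligodendrocyte-like nuclei (1129 and 799) served as a measure of free RNA, since these cells are known for little GABA-A receptor expression.

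The alpha 2 gene Gabra2 (ENSMUSG00000000560, GRCm38 chromosome 5, 70957597 to 71095849, minus strand) stood highest in granule-like nuclei, at 826 CPM in the Het library and 730 CPM in the WT library, followed by CA1-like nuclei at 764 and 693 CPM. CA3-like nuclei held 705 CPM in the Het library and 614 CPM in the WT library. CA2-like nuclei held 655 and 662 CPM, and their counting interval overlapped that of CA3-like nuclei in the Het library and those of both CA1-like and CA3-like nuclei in the WT library. Astrocyte-like nuclei also carried the gene, at 530 CPM in the Het library and 541 CPM in the WT library, well above the 77.5 and 109 CPM of microglia-like nuclei. After every nucleus was thinned to 1000 UMIs, 33.4% of Het and 35.5% of WT astrocyte-like nuclei had a Gabra2 UMI, against 6.35% and 5.99% of microglia-like nuclei. The median depth before thinning was 2657.5 (Het) and 2725 (WT) UMIs in astrocyte-like nuclei and 1464 (Het) and 1465 (WT) in microglia-like nuclei. Inhibitory-like nuclei held less Gabra2 than any excitatory class, at 308 CPM in the Het library and 223 CPM in the WT library.

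Gabra3 (ENSMUSG00000031343, chromosome X, 72432681 to 72656848, minus strand), the alpha 3 gene, was at background in granule-like nuclei and present in several other classes. Its level was 118 CPM in the Het library and 149 CPM in the WT library in the Fn1-led excitatory cluster, and 104 and 102 CPM in subicular, entorhinal or cortical-like nuclei. Inhibitory-like nuclei held 89.7 CPM in the Het library and 103 CPM in the WT library, and oligodendrocyte precursor-like nuclei 106 and 78.3 CPM. The counting intervals of these 4 classes overlapped with a neighbour in order in the Het library. In the WT library the Fn1-led cluster stood above the others. From CA1-like (Het 60.8 and WT 62.9 CPM) over CA2-like (Het 20.96 and WT 19.44 CPM) to CA3-like nuclei (Het 7.48 and WT 6.60 CPM) the level was lower at each step in both libraries. Granule-like nuclei held 31 Gabra3 UMIs among 2049 Het nuclei and 22 among 1472 WT nuclei, 0.0151 and 0.0149 per nucleus, which is no more than the 0.0214 and 0.0127 per nucleus of microglia-like nuclei beyond counting error and is read as background. Precursor-like nuclei stood apart from free RNA, with a Gabra3 UMI in 28.7% of Het and 24.3% of WT nuclei, against 2.14% and 0.844% of microglia-like nuclei at median depths of 3258 and 3285 UMIs for the precursors. Within the CA1-like class, a cluster led by Dcn and Htr5b (cluster 5) held 94.1 CPM of Gabra3 in the Het library and 97.9 CPM in the WT library, while the other cluster (cluster 3) held 35.4 and 35.6 CPM. The difference between the clusters was thus about as large in both libraries.

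The alpha 4 gene Gabra4 (ENSMUSG00000029211, chromosome 5, 71569749 to 71658308, minus strand) was highest in granule-like nuclei, at 272 CPM in the Het library and 257 CPM in the WT library. The other neuronal classes held 99.5 to 148 CPM in the Het library and 93.7 to 129 CPM in the WT library, with overlapping intervals between most neighbours in order. The next-highest class was that of subicular, entorhinal or cortical-like nuclei in the Het library (148 CPM) and CA3-like nuclei in the WT library (129 CPM), so the order below the granule-like class was not the same in both. Microglia-like nuclei held 44.6 CPM in the Het library and 30.5 CPM in the WT library.

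Gabra5 (ENSMUSG00000055078, chromosome 7, 57407672 to 57510059, minus strand), the alpha 5 gene, was highest in CA3-like nuclei, at 369 CPM in the Het library and 302 CPM in the WT library. CA1-like nuclei followed with 290 (Het) and 249 (WT) CPM, CA2-like nuclei with 257 (Het) and 246 (WT) CPM and granule-like nuclei with 210 (Het) and 184 (WT) CPM. The order of these classes was the same in both libraries, with intervals that overlapped for CA1-like and CA2-like nuclei in the WT library alone. Per nucleus, Gabra5 averaged 6.93 UMIs in Het and 4.51 UMIs in WT CA3-like nuclei, whose median depth was 16826.5 and 13706 UMIs. Astrocyte-like nuclei held 0.227 (Het) and 0.229 (WT) UMIs per nucleus, against 0.122 (Het) and 0.127 (WT) in microglia-like nuclei at a lower depth, and their 62.9 (Het) and 62.0 (WT) CPM lay below the 77.5 (Het) and 76.2 (WT) CPM of microglia-like nuclei. A Gabra5 level in astrocyte-like nuclei was thus above microglia-like nuclei per nucleus but not per UMI. The same holds for WT inhibitory-like nuclei, at 63.4 CPM. Per nucleus, inhibitory-like nuclei held 1.36 (Het) and 0.720 (WT) UMIs, 11.1 and 5.69 times the microglia-like values, multiples that include their greater depth. After thinning to 1000 UMIs, 5.57% of Het and 4.82% of WT inhibitory-like nuclei had a Gabra5 UMI. That is no more than the 5.69% (Het) and 6.45% (WT) of microglia-like nuclei.

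The starts of 3 alpha genes that were highest in different classes are shown here for their sequence context. Each window holds the 250 bases before an annotated RefSeq start (GRCm38.p6), read 5' to 3' on the gene's strand, with CG dinucleotides in capitals. 6 of the 7 members had an entry.
Gabra2 (chr5:71095850-71096099, minus): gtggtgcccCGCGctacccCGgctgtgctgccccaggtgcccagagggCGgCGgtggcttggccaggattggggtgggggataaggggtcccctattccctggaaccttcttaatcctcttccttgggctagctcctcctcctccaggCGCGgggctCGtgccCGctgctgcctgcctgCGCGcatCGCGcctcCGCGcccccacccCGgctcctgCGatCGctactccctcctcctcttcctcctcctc
Gabra5 (chr7:57510060-57510309, minus): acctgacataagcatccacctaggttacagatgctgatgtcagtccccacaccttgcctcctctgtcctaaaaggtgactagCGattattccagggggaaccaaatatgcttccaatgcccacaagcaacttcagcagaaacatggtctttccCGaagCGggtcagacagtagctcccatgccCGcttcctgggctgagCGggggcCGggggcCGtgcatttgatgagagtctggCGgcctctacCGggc
Gabra3 (chrX:72656920-72657169, minus): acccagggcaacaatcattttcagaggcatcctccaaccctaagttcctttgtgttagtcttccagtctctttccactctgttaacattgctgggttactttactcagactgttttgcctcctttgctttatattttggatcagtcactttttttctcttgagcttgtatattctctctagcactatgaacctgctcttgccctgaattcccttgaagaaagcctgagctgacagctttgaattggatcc
The Gabra2 window held 18 CG dinucleotides at 70% G and C, a number reached by 21.7% of 32851 windows of the same length. The Gabra5 window held 9 at 56.4% G and C, reached by 40.3% of windows. The Gabra3 window, the upstream one of 2 annotated starts, held 0 at 42.4% G and C, as did 7.87% of windows. CG reads the same on both strands, and the median window held 6. These letters describe the windows only. No annotated exon lay over any of the 3.

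Gabrb1 (ENSMUSG00000029212, chromosome 5, 71658113 to 72149037, plus strand), the beta 1 gene, was the member with most UMIs. It was highest in astrocyte-like nuclei, at 3970 CPM in the Het library and 4062 CPM in the WT library, where 96.69% and 96.99% of nuclei thinned to 1000 UMIs had a UMI of it. CA2-like nuclei followed with 1836 CPM in the Het library and 2419 CPM in the WT library, then granule-like nuclei with 1657 and 1675 CPM. The remaining excitatory classes lay between 1179 and 1392 CPM in the Het library and between 1231 and 1426 CPM in the WT library. Precursor-like nuclei held 498 (Het) and 757 (WT) CPM, against 122 (Het) and 155 (WT) CPM in microglia-like nuclei. In astrocyte-like nuclei, Gabrb1 made up 83.4% of all UMIs of the 7 members in the Het library and 83.1% in the WT library, against 46.1% and 49.2% in granule-like nuclei.

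Gabrb2 (ENSMUSG00000007653, chromosome 11, 42419757 to 42629028, plus strand), the beta 2 gene, had another order of classes. It was highest in inhibitory-like nuclei (631 CPM in the Het library, 613 CPM in the WT library) and the Fn1-led excitatory cluster (630 and 628 CPM), whose intervals overlapped. Granule-like nuclei held 583 (Het) and 517 (WT) CPM, CA1-like nuclei 370 (Het) and 355 (WT) CPM, and CA3-like nuclei 180 (Het) and 149 (WT) CPM. In astrocyte-like nuclei Gabrb2 was at 85.2 CPM in the Het library and 98.8 CPM in the WT library, against 42.6 and 58.4 CPM in microglia-like nuclei. Those intervals overlapped in the WT library but not in the Het library. Among inhibitory-like nuclei, the neurogliaform-like cluster (cluster 19, 51 Het and 71 WT nuclei) held 1292 CPM in the Het library and 1194 CPM in the WT library. The Vip- and Cck-like cluster (cluster 18, 91 Het and 131 WT nuclei) held 376 (Het) and 366 (WT) CPM, so the spread within the class was over 3-fold in each library.

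Gabrd (ENSMUSG00000029054, chromosome 4, 155384980 to 155398112, minus strand), the delta gene, was highest in granule-like nuclei, at 40.7 CPM in the Het library and 38.2 CPM in the WT library. That class supplied 61.7% of the 1009 Gabrd UMIs of the Het library and 54.5% of the 769 UMIs of the WT library, while holding 30.2% and 24.9% of the nuclei. Inhibitory-like nuclei followed with 16.5 (Het) and 21.4 (WT) CPM. Their counting intervals overlapped those of microglia-like nuclei, at 15.5 (Het) and 12.7 (WT) CPM from 8 and 5 UMIs. Gabrd in inhibitory-like nuclei was thus above microglia-like nuclei per nucleus, at 0.238 (Het) and 0.243 (WT) UMIs, but not resolved from them per UMI. Among inhibitory-like nuclei, the neurogliaform-like cluster held 15 UMIs (25.6 CPM) in the Het library and 40 UMIs (52.5 CPM) in the WT library. The Vip- and Cck-like cluster held 8 UMIs and 0 UMIs. CA3-like nuclei held 8 Gabrd UMIs in the Het library and 4 in the WT library, 0.0374 and 0.0197 per nucleus, against 0.0245 and 0.0211 in the much shallower microglia-like nuclei. Gabrd in CA3-like nuclei was thus not detectable above free RNA. In granule-like nuclei the 0.304 and 0.285 UMIs per nucleus were 12.4 and 13.5 times the higher of the microglia-like and oligodendrocyte-like values. These multiples are per nucleus and include the greater depth of granule-like nuclei. By CPM the distance was smaller, at 40.7 against 15.5 in microglia-like nuclei (Het) and 38.2 against 12.7 (WT), with counting intervals that did not overlap.

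**Figure D1:**
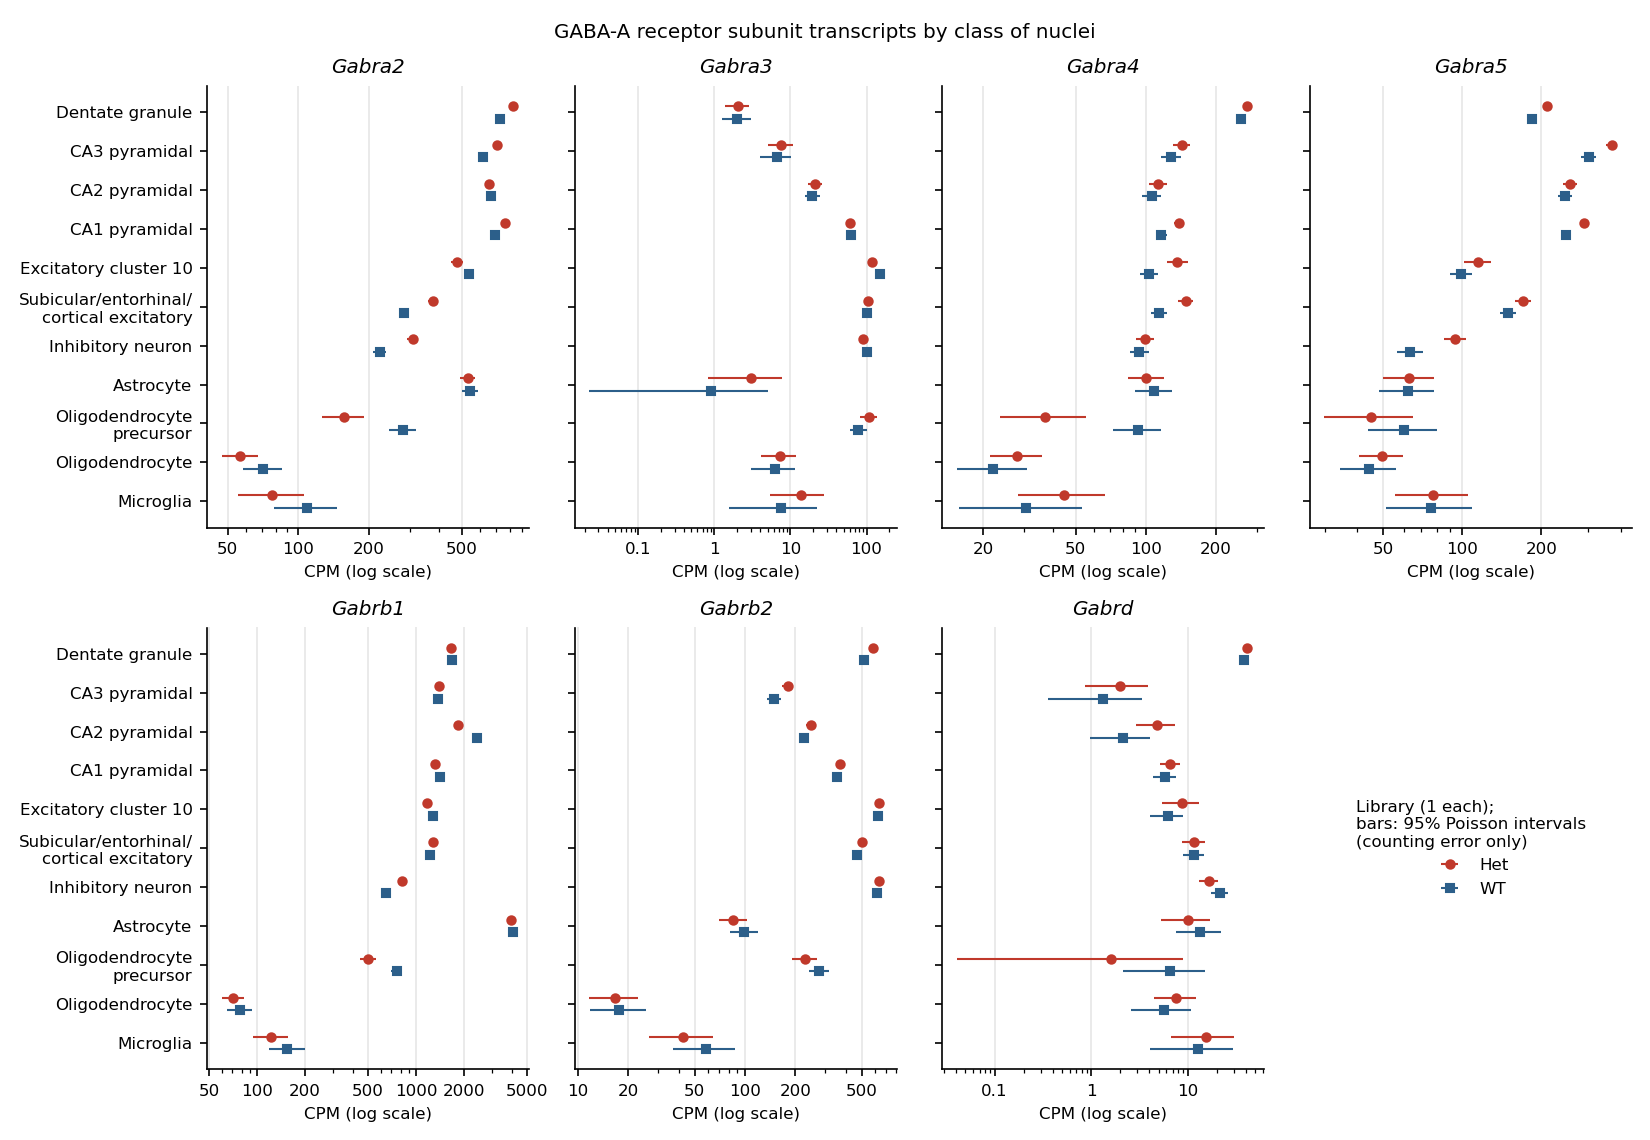
Level of each subunit gene in CPM (log scale, its own range in each panel) in 11 classes of nuclei, with Het circles above WT squares and bars for 95% Poisson intervals. Gabra4 and Gabrd peak in granule-like nuclei, Gabra5 in CA3-like nuclei and Gabrb1 in astrocyte-like nuclei in both libraries, and Gabra3 lies at 2.03 (Het) and 2.004 (WT) CPM in granule-like nuclei, below microglia-like nuclei at 13.6 (Het) and 7.62 (WT) CPM.

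Between genes, levels are compared per 100 kb of gene length, because nuclear RNA is rich in unspliced transcripts. In granule-like nuclei, CPM per 100 kb was highest for Gabra2 (597 in the Het library, 528 in the WT library). Gabrb1, Gabrd and Gabra4 lay close together on that scale, at 338, 310 and 307 in the Het library and 341, 291 and 290 in the WT library. Gabrd spans 13.1 kb, the shortest member, and Gabrb1 spans 491 kb, so Gabrd takes its place here through its length: by CPM alone it was 40.7 against 1657 in the Het library. The scale assumes UMIs in proportion to length, which was not tested.

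The balance between members was read as the log2 ratio of their UMIs within a class, and is compared between classes and libraries only. Gabrd to Gabra5, the delta and alpha 5 genes of tonic inhibition, stood at -2.37 in Het and -2.27 in WT granule-like nuclei. The same balance was -5.45 (Het) and -5.42 (WT) in CA1-like nuclei and -7.53 (Het) and -7.84 (WT) in CA3-like nuclei, the last from only 8 (Het) and 4 (WT) Gabrd UMIs. The granule-like and pyramidal-like balances did not overlap in their counting intervals in either library. Gabra2 to Gabra5 was 1.97 (Het) and 1.99 (WT) in granule-like nuclei and 0.93 (Het) and 1.02 (WT) in CA3-like nuclei, so CA3-like nuclei carried relatively more Gabra5.

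Gabra3 to Gabra2 spanned the widest range of these balances among neurons. It was -8.67 in Het and -8.51 in WT granule-like nuclei, -3.65 and -3.46 in CA1-like nuclei and -1.78 and -1.12 in inhibitory-like nuclei. The granule-like values come from 31 (Het) and 22 (WT) Gabra3 UMIs, read above as background, so the low end of this range is set by background. In a Foxp2-led cluster of the subicular, entorhinal or cortical-like class (cluster 16, 95 Het and 143 WT nuclei) both genes had about the same number of UMIs, with a balance of -0.38 in the Het library and 0.17 in the WT library. Gabrb1 to Gabrb2 was 5.54 (Het) and 5.36 (WT) in astrocyte-like nuclei, 2.95 (Het) and 3.21 (WT) in CA3-like nuclei, 1.51 (Het) and 1.70 (WT) in granule-like nuclei and 0.37 (Het) and 0.08 (WT) in inhibitory-like nuclei. Only in the neurogliaform-like cluster, of the classes and clusters compared, did Gabrb2 exceed Gabrb1 in UMIs, with -0.98 in the Het library and -0.90 in the WT library.

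**Figure D2:**
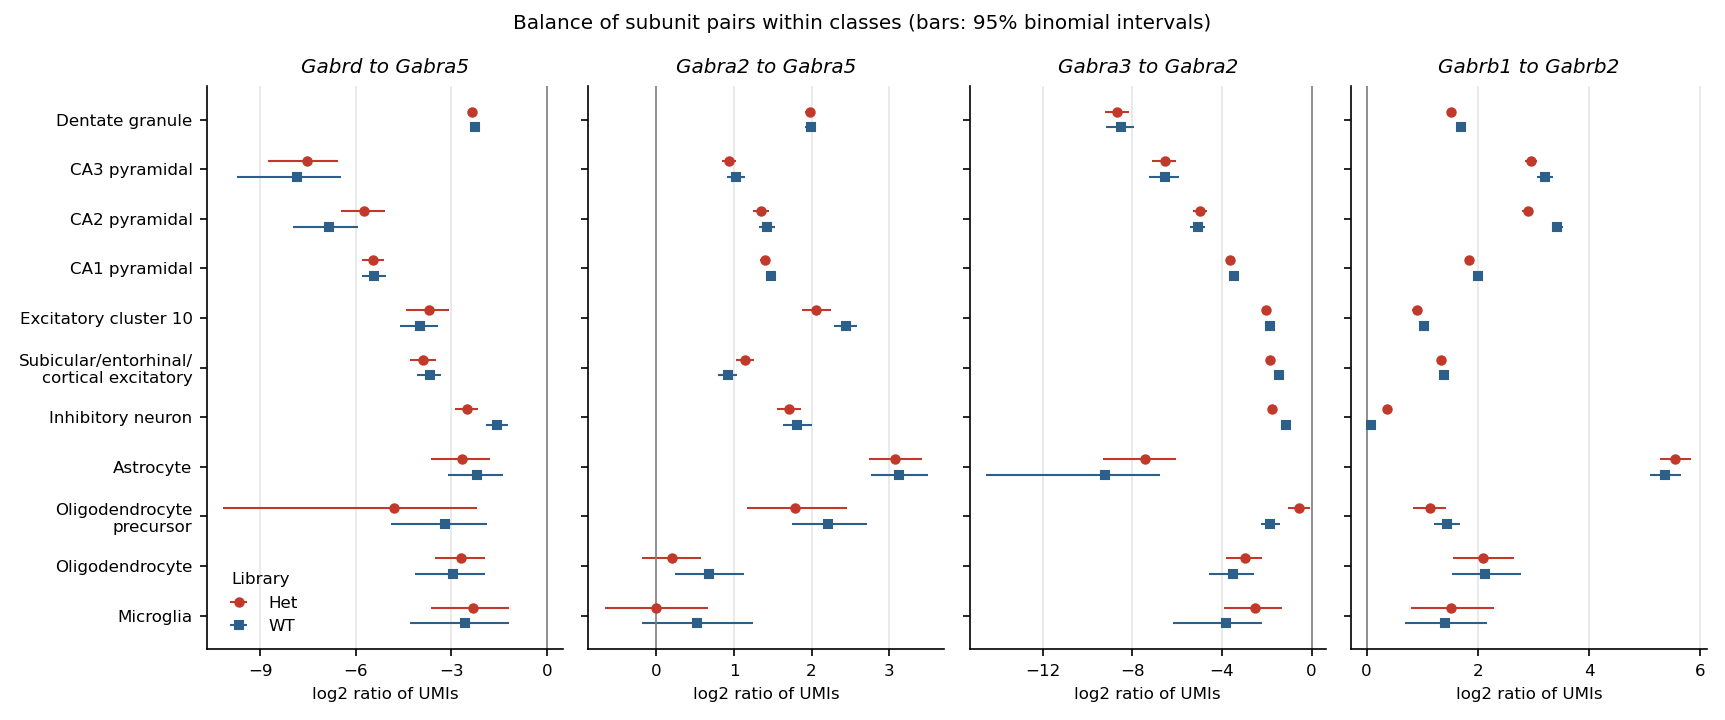
Log2 ratio of the UMIs of 4 pairs of subunit genes in 11 classes, with Het circles above WT squares and bars for 95% binomial intervals (counting error only). The delta to alpha 5 ratio is -2.37 in Het and -2.27 in WT granule-like nuclei and under -5 in CA1-like, CA2-like and CA3-like nuclei, and the beta 1 to beta 2 ratio is over 5 in astrocyte-like nuclei and under 0.4 in inhibitory-like nuclei.

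Across the 22 profiles of 11 classes and 2 libraries, Gabra2 was most like Gabrb1 (Pearson r of log2(CPM + 1) 0.92) and Gabra4 (0.90) among the members, while Gabra3 stood near 0 with Gabra2 (-0.03). Among 11907 genes outside the family, the profile most like that of Gabra2 was that of Cap2 (0.97), an actin-binding protein gene. For Gabra3 it was Igsf9b (0.94), a cell adhesion gene known from inhibitory synapses, for Gabra4 Htr4 (0.95), a serotonin receptor gene, and for Gabra5 Nell2 (0.95), which encodes a secreted neuronal protein. For Gabrb2 it was Esrrg (0.96), a nuclear receptor gene, and for Gabrd Stk32c (0.86), a kinase gene. For Gabrb1 the named protein-coding gene with the highest value was Nrcam (0.95), a cell adhesion gene, after the gene models Gm48747 and Gm13187. These are descriptions over profiles that share libraries and depth.

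Over all nuclei, Het over WT, 0 of the 7 members were past 1.5-fold, against 1.39% of the 14355 genes with 200 or more UMIs in the 2 libraries together (0.724% higher and 0.669% lower in the Het library). Gabra2 stood at 630 CPM in the Het library and 548 CPM in the WT library, a log2 ratio of 0.20 (95% interval 0.18 to 0.22). Gabra4 (Het 167 and WT 143 CPM, 0.23), Gabra5 (Het 209 and WT 177 CPM, 0.24) and Gabrd (Het 18.1 and WT 15.6 CPM, 0.22) lay at similar ratios. Gabrb1 (Het 1432 and WT 1470 CPM, -0.04) and Gabrb2 (Het 425 and WT 407 CPM, 0.06) were nearest to 0. The median ratio of the 7 members was 0.20, beside -0.01 over all genes.

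Gabra3 was the one member clearly lower over all nuclei, at 39.1 CPM in the Het library and 52.4 CPM in the WT library, a log2 ratio of -0.42 (-0.50 to -0.34). Classes rich in Gabra3 made up fewer of the Het nuclei: the Fn1-led cluster was 1.88% of Het and 4.62% of WT nuclei, and supplied 13.6% and 25.0% of the Gabra3 UMIs. Subicular, entorhinal or cortical-like nuclei were 6.402% (Het) and 10.16% (WT) of the nuclei, and inhibitory-like nuclei 4.75% (Het) and 7.03% (WT). With the makeup of the 11 classes held equal in both libraries, a weighting chosen after seeing the data, the ratio was -0.02. Held equal in the same way, Gabra2 stood at 0.13, Gabra4 at 0.13, Gabra5 at 0.20 and Gabrd at 0.07. Gabra3 is X-linked, and Y-linked genes averaged 3.72 UMIs per nucleus in the Het library and 3.58 in the WT library.

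**Figure D3:**
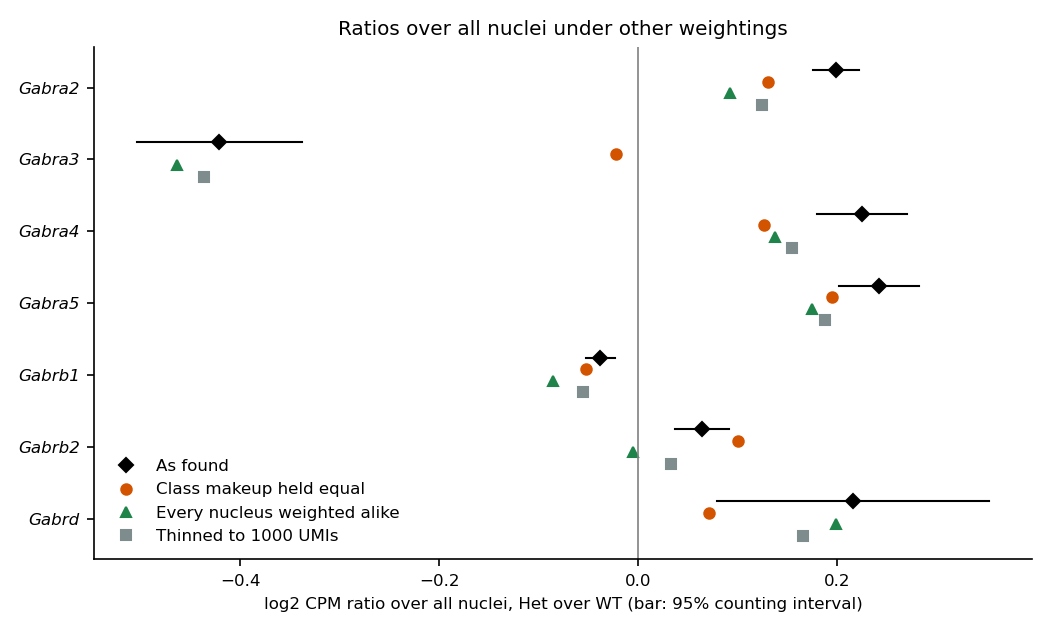
Log2 ratio of CPM over all nuclei, Het over WT, for each subunit gene as found (black, with its 95% counting interval) and under 3 other weightings. Gabra3 moves to -0.02 when the class makeup is held equal, and the other 6 genes stay between -0.09 and 0.24 under every weighting shown.

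Within classes, 35 of 56 pairs of a member and a class reached 200 UMIs, and 0 of these 35 were past 1.5-fold. Over all genes past the same floor, the share past 1.5-fold was 0.826% in granule-like, 1.04% in CA1-like and 0.984% in CA3-like nuclei. In the single directions, 0.463% of genes were higher and 0.363% lower in Het granule-like nuclei, 0.473% and 0.563% in CA1-like nuclei and 0.257% and 0.727% in CA3-like nuclei. The share in either direction was 1.05% in subicular, entorhinal or cortical-like and 2% in inhibitory-like nuclei, and 1.31% in astrocyte-like, 0.824% in oligodendrocyte-like and 3.14% in microglia-like nuclei. Of the last 3 classes, astrocyte-like nuclei had 0.719% of genes higher and 0.592% lower, oligodendrocyte-like nuclei 0.505% and 0.319%, and microglia-like nuclei 1.21% and 1.93%. The counting interval lay above 0 for 18 of the 35 pairs, below 0 for 2 and held 0 for 15. Over all genes past the floor in the same classes, 9.17% of intervals lay above 0 and 12.4% below. The interval narrows as UMIs increase, and the members were not compared with genes of matched UMIs. Such intervals leave out the spread between mice and between nuclei, so they are no test of the genotype.

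In granule-like nuclei, Gabra2 (0.18), Gabra5 (0.19) and Gabrb2 (0.17) had log2 ratios above 0, with intervals from 0.11 to 0.27 at the widest. Gabra2 averaged 6.16 UMIs per nucleus in Het and 5.44 in WT granule-like nuclei, and its ratio was higher than that of 85.0% of genes in the class. Gabra4 (0.08, 0.01 to 0.15), Gabrd (0.09, -0.09 to 0.28) and Gabrb1 (-0.02, -0.04 to 0.01) lay nearer to 0. The median of the 6 members past the floor was 0.13, beside -0.00 over all genes. Gabra3, at its background level in this class, did not reach the floor. The choroid plexus marker list, 7 genes of which 0 (Het) and 2 (WT) were at 0, stood at 213 CPM in Het and 81.8 CPM in WT granule-like nuclei, and its part in these ratios was not tested.

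In CA1-like nuclei, Gabra4 (0.25), Gabra5 (0.22) and Gabra2 (0.14) were again above 0, and Gabrb1 was below it (1320 CPM in the Het library, 1426 CPM in the WT library, -0.11, -0.15 to -0.08). Gabra3 had 644 (Het) and 639 (WT) UMIs and a ratio of -0.05 (-0.21 to 0.11). In CA3-like nuclei, Gabra5 (0.29), Gabrb2 (0.27) and Gabra2 (0.20) lay above 0 and Gabrb1 at 0.01 (-0.05 to 0.07). Depth went the same way in these classes, with medians of 11165 Het and 9811 WT UMIs in CA1-like nuclei and the higher depth in Het CA3-like nuclei given above. Marker lists of other cells also differed in CA1-like nuclei. The inhibitory list (8 genes) stood at 50.7 CPM in Het and 28.9 CPM in WT nuclei, the oligodendrocyte list (8 genes) at 200.03 and 106.6 CPM, the choroid plexus list (7 genes) at 243 and 154 CPM and the dentate granule list (8 genes) at 213 and 148 CPM. In CA3-like nuclei the choroid plexus list stood at 124 CPM in Het and 52.8 CPM in WT nuclei. The part of depth and of these transcripts in the ratios was not tested.

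The beta balance was lower in the Het library in most neuronal classes compared and higher in inhibitory-like nuclei. The Het minus WT difference of the log2 Gabrb1 to Gabrb2 ratio was -0.19 (-0.24 to -0.13) in granule-like and -0.17 (-0.24 to -0.10) in CA1-like nuclei. Within the CA1-like class it was -0.07 in cluster 3 and -0.28 in the Dcn-led cluster 5. It was -0.26 in CA3-like nuclei, -0.05 in subicular, entorhinal or cortical-like nuclei and 0.28 in inhibitory-like nuclei. Among inhibitory-like nuclei it was 0.32 in cluster 11, 0.28 in the Vip- and Cck-like cluster and -0.08 in the neurogliaform-like cluster. The Gabrb1 ratio of the inhibitory-like class was much nearer to 0 with doublets kept, as given below. For Gabrd to Gabra5 the difference was -0.10 (-0.30 to 0.10) in granule-like nuclei and -0.03 (-0.56 to 0.50) in CA1-like nuclei, and counting error does not resolve it in either class. Within the granule-like class it was -0.13 in cluster 0 and -0.31 in cluster 2, given without intervals. Cluster 2 made up 43.1% of Het and 27.4% of WT granule-like nuclei, and the part of this makeup in the class value was not tested.

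In inhibitory-like nuclei, 3 members had ratios well above 0. Gabra2 stood at 308 CPM in the Het library and 223 CPM in the WT library (0.47, 0.35 to 0.58), and Gabrb1 at 815 and 649 CPM (0.33, 0.26 to 0.40). Gabra5 stood at 93.9 and 63.4 CPM (0.57, 0.35 to 0.78). Its level was above that of microglia-like nuclei per nucleus, as given above, but not resolved from them per UMI. Gabra3 (-0.19), Gabra4 (0.09) and Gabrb2 (0.04) lay nearer to 0. In the same nuclei the general excitatory marker list, 7 genes, stood at 771 CPM in the Het library and 515 CPM in the WT library. The oligodendrocyte list stood at 314 (Het) and 138 (WT) CPM and the astrocyte list at 172 (Het) and 91.2 (WT) CPM, 8 genes each, with no gene of the 3 lists at 0. The part of these transcripts in the ratios was not tested. With doublets kept in both libraries the ratios were 0.08 for Gabra2, 0.27 for Gabra5 and 0.06 for Gabrb1. Cluster 11, the largest inhibitory-like cluster, held 181 Het and 213 WT nuclei and was not named further. Gabra2 in cluster 11 was at 281 CPM in the Het library and 156 CPM in the WT library, a ratio of 0.85. Gabra5 had a ratio of 0.80 there. These ratios were past 1.5-fold, but the share of all genes past 1.5-fold is not given for this cluster. Cluster 11 was singled out after its values were seen. It held fewer Het nuclei than the number set for a ratio, so its ratios are descriptions only. In the neurogliaform-like cluster Gabra2 stood at 160 CPM in the Het library and 181 CPM in the WT library, with overlapping counting intervals, and in the Vip- and Cck-like cluster at 453 and 395 CPM.

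In subicular, entorhinal or cortical-like nuclei, Gabra2 (Het 376 and WT 282 CPM, 0.42, 0.32 to 0.51) and Gabra4 (Het 148 and WT 114 CPM, 0.38, 0.22 to 0.53) had the highest ratios of the 6 members past the floor. Gabra5 (0.19, 0.05 to 0.33), Gabrb2 (0.10, 0.02 to 0.18) and Gabrb1 (0.05, 0.002 to 0.10) also had intervals above 0. Gabra3, for which this class is a main source, was at 0.03 (-0.15 to 0.20). A cluster led by Sntb1 and Vwc2l (cluster 15), singled out after its values were seen, held 420 Gabra2 UMIs in 112 Het nuclei (265 CPM) and 190 in 131 WT nuclei (117 CPM), and 51.8% and 37.4% of its nuclei had a UMI. That difference in CPM was past 1.5-fold, but the share of all genes past 1.5-fold is not given for this cluster. Cluster 15 held fewer nuclei in each library than the number set for a ratio. Of the other clusters of the class, cluster 7 held 1224 Gabra2 UMIs in 228 Het nuclei and 1303 in 326 WT nuclei. Cluster 16 held 146 in 95 Het nuclei and 135 in 143 WT nuclei. In the whole class the dentate granule marker list stood at 421 CPM in the Het library and 270 CPM in the WT library, and its part in these ratios was not tested.

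In astrocyte-like nuclei all 4 members past the floor had ratios below 0 with intervals that held it, and for Gabrb2 (-0.21) the direction turned, to 0.72, with doublets kept or at a clustering resolution of 2 and to 0.31 after thinning. Gabrb1 was at -0.03 (-0.09 to 0.02) from 5173 Het and 4521 WT UMIs. In oligodendrocyte-like nuclei Gabra2 (-0.32, -0.70 to 0.06) and Gabrb1 (-0.14, -0.49 to 0.21) also had intervals that held 0. In microglia-like nuclei no member reached the floor. Among precursor-like nuclei, Gabra2 had 97 UMIs in the Het library and 214 in the WT library, and Gabra4 had 23 and 71. After thinning, 12.99% of Het and 14.29% of WT precursor-like nuclei had a Gabra2 UMI. The dentate granule marker list in these nuclei stood at 961 CPM in the Het library and 1584 CPM in the WT library.

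**Figure D4:**
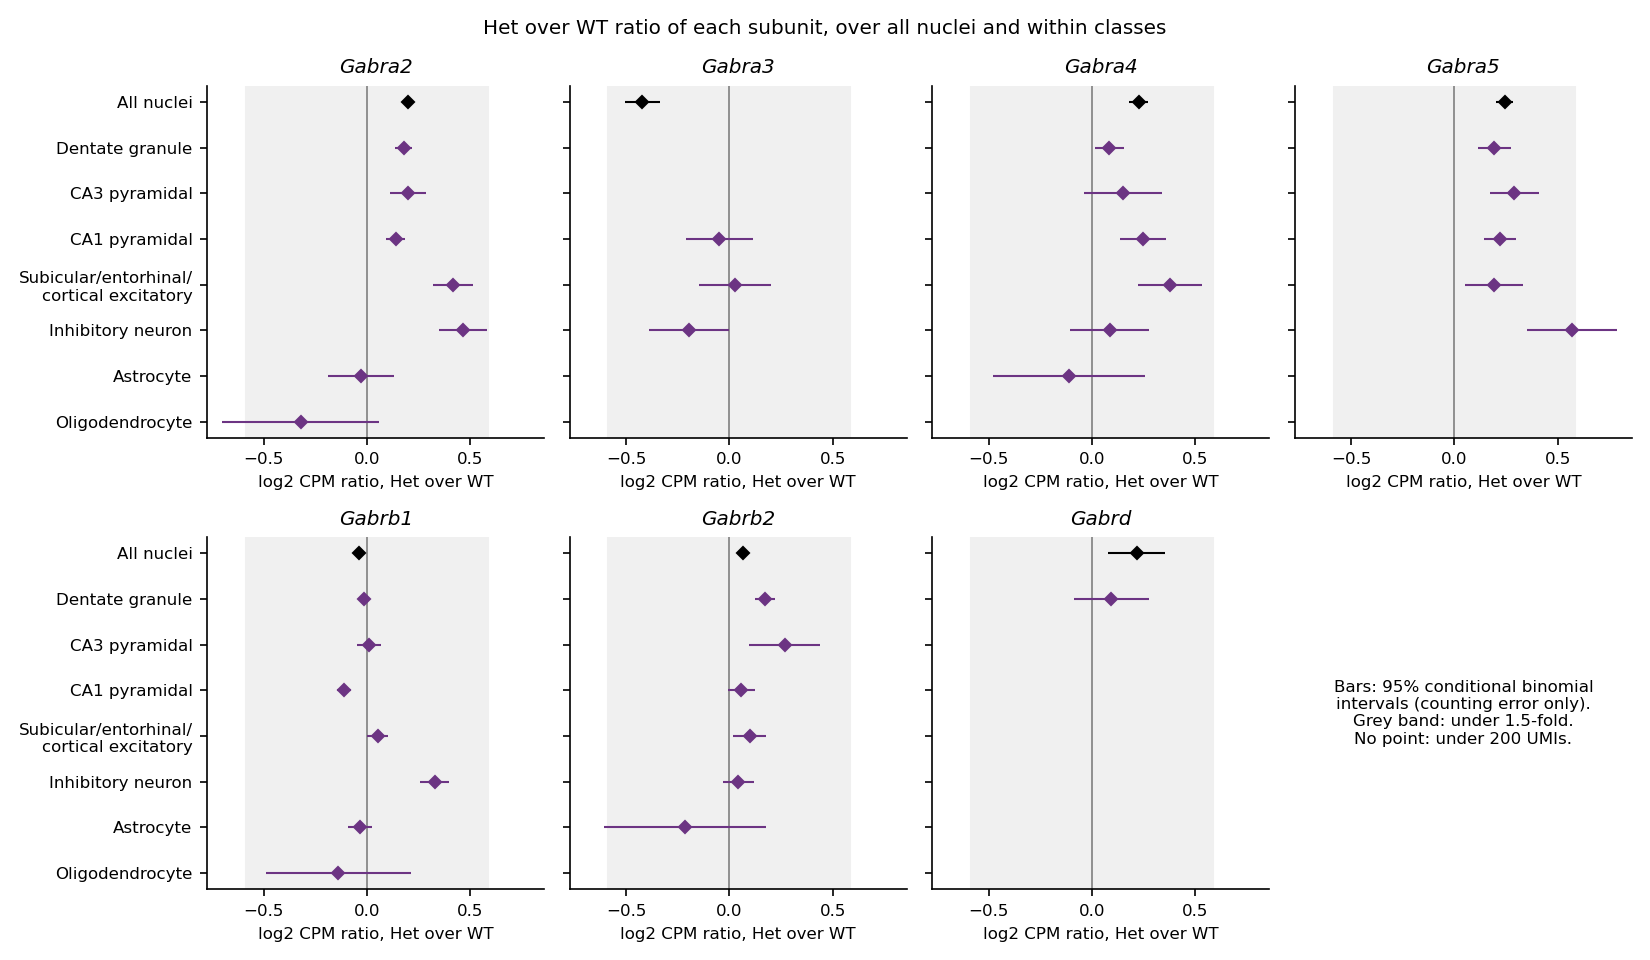
Log2 ratio of CPM, Het over WT, of each subunit gene over all nuclei (black) and in 7 classes (purple), with 95% conditional binomial intervals and a grey band for ratios under 1.5-fold. All points lie inside the band, and the points farthest above 0 are Gabra5 and Gabra2 in inhibitory-like nuclei.

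Genes around the receptor were read from lists. Of the 12 other GABA-A subunit genes, 6 reached 200 UMIs over all nuclei and 1 was past 1.5-fold, the rho subunit gene Gabrr2. It had 134 UMIs in the Het library and 75 in the WT library (0.66, 0.24 to 1.09), where 0.724% of all genes were at least 1.5-fold higher. Within the 8 classes compared, 0 to 4 of the 12 reached the floor and 0 were past 1.5-fold. At a floor of 50 UMIs, 1 was lower in CA3-like and 1 in inhibitory-like nuclei, and 1 was higher in subicular, entorhinal or cortical-like nuclei, where 5.98%, 5.75% and 4.82% of all genes past that floor were past 1.5-fold in either direction. Of the 22 anchoring and trafficking genes, 1 of 20 past the floor in CA1-like nuclei was past 1.5-fold higher, against 0.473% of all genes. That was Plcl1, which encodes a phospholipase C-related protein that binds GABA-A receptor beta subunits and phosphatases, with 63.8 CPM in the Het library and 36.5 CPM in the WT library (0.80, 0.62 to 0.99). Plcl1 was also the 1 of 19 in inhibitory-like nuclei, at 190 (Het) and 125 (WT) CPM (0.60), where 1.21% of all genes were at least 1.5-fold higher. The gene is far more abundant in oligodendrocyte-like nuclei, at 3196 CPM in the Het library and 3671 CPM in the WT library, and the oligodendrocyte marker list was at 200 CPM in Het and 107 CPM in WT CA1-like nuclei. The part of oligodendrocyte transcripts in the Plcl1 ratios was not tested. Gphn, the gene of the anchoring protein gephyrin, stood at 888 (Het) and 828 (WT) CPM over all nuclei (0.10).

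Of the 6 GABA-B receptor genes, 1 of 3 past the floor in astrocyte-like nuclei was lower past 1.5-fold, where 0.592% of all genes were. It was Gabbr2, a subunit gene of the metabotropic GABA receptor, at 98.2 CPM in the Het library and 155 CPM in the WT library (-0.654, -0.995 to -0.315). In granule-like nuclei the same gene was at 388 (Het) and 411 (WT) CPM (-0.08). Of the 9 genes of GABA synthesis, transport and breakdown, 0 to 6 reached the floor in a class, and of the 10 of chloride transport 2 to 9 did, and 0 of these were past 1.5-fold, beside the shares of all genes given above. At a floor of 50 UMIs, 1 synthesis, transport or breakdown gene was higher in astrocyte-like and 1 in oligodendrocyte-like nuclei, and 1 was lower in subicular, entorhinal or cortical-like nuclei, where 6.80%, 5.65% and 4.82% of all genes were past 1.5-fold in either direction. Gad1, which encodes a GABA-synthesising enzyme, was at 229 CPM in Het and 254 CPM in WT inhibitory-like nuclei (-0.15), and Slc12a5, the neuronal chloride exporter, at 187 and 159 CPM in granule-like nuclei (0.23).

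The counting of overlapping genes limits these values. Gabra4 and Gabrb1 lie head to head on opposite strands of chromosome 5 with overlapping starts, and Gabra5 overlaps an antisense gene and another subunit gene on the opposite strand. Whether reads were counted by strand, or in introns, is not given in the sources used, so reads of such neighbours may not be told apart. Gabra4 peaked in granule-like nuclei and Gabrb1 in astrocyte-like nuclei in both libraries, but different peaks cannot show that their reads were told apart. In astrocyte-like nuclei Gabra4 stood at 100.5 CPM in the Het library and 108.7 CPM in the WT library. Microglia-like nuclei held 44.6 (Het) and 30.5 (WT) CPM of Gabra4. The part of Gabrb1 reads in the Gabra4 levels was not tested.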

How the data were processed

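Nuclei of 1 Het and 1 WT hippocampus library were analysed. Per the labels' protocols, frozen tissue was homogenised, nuclei were collected by density centrifugation and libraries were made with 10x Genomics 3' v3 chemistry. As deposited, the values are raw UMI counts for each gene in each barcode. Per the submitters' processing notes the authors used Cell Ranger 7.1.0 and mm10.

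From these counts, Python 3.11.15, scanpy 1.11.5, leidenalg 0.10.2 and scipy 1.17.1 were used. Barcodes with at least 500 genes and at most 5% mitochondrial UMIs were kept. Scrublet's automatic threshold marked 517 WT nuclei (8.05%), which were removed. In the Het library it marked 1 nucleus (0.0139%), so the 416 highest scores (5.77%, the expected rate) were removed. Counts were scaled to 10000 per nucleus, log-transformed and clustered on 2000 variable genes, 30 principal components, 15 neighbours and Leiden resolution 1. No GABA-A subunit gene was used for clustering, nor were Capza2, genes of the mitochondrial genome, of ribosomal proteins or of the Y chromosome, or Xist and Tsix. Clusters were named from markers, with at least 3 detected. Clusters 17, 24 and 26, with at least 2 times the mean doublet score and deeper than the largest cluster of their name, were set apart, and cluster 13, shallow and led by hemoglobin genes, stayed unnamed.

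UMIs were summed per class and library and given as CPM, with exact Poisson, binomial (Clopper-Pearson) or conditional binomial intervals at 95%, which cover counting error only. With 1 library per genotype no test or p-value is given, and 1.5-fold was used as the size that counts, in classes of at least 200 nuclei per library and genes of at least 200 UMIs. The interval code was tested on simulated data. Thinning to 1000 UMIs left out 292 Het and 106 WT nuclei. All members are named, and other genes where a list member was past 1.5-fold in a class, at most 4 per list. Gabrr2, Gphn, Gad1, Slc12a5 and clusters 11 and 15 were added after their values were seen. The members and lists were chosen with earlier results of these data known. Coordinates are those of GENCODE M21 (GRCm38), in which 32158 of 32285 gene IDs were found.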

Additional observations from a re-analysis of the deposited data

How the results depend on the processing

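Of the pairs of a member and a class, 0 were past 1.5-fold as reported, at a floor of 50 UMIs or at a size of 2-fold. 5 alternative values within classes did pass 1.5-fold. Gabra2 (0.85) and Gabra5 (0.80) passed it in the largest inhibitory-like cluster, which held fewer Het nuclei than the number set for a ratio. Gabra5 in inhibitory-like nuclei passed it when centred on the median of all genes (0.60). Gabrb2 in astrocyte-like nuclei, -0.21 as reported, passed it with doublets kept (0.72) and at resolution 2 (0.72). The share of all genes past 1.5-fold is not given for these alternatives. Over all nuclei, thinning to 1000 UMIs gave log2 ratios of 0.12 for Gabra2, 0.15 for Gabra4, 0.19 for Gabra5, -0.0548 for Gabrb1 and 0.0331 for Gabrb2. Weighting every nucleus alike gave 0.0922 for Gabra2, 0.14 for Gabra4, 0.18 for Gabra5, -0.0856 for Gabrb1 and -0.00458 for Gabrb2. Holding the class makeup equal, added after seeing the data, gave 0.13 for Gabra2, -0.0220 for Gabra3, 0.13 for Gabra4, 0.20 for Gabra5, 0.10 for Gabrb2 and 0.0719 for Gabrd. The causes were not tested. Of 52 values, the sign was kept in 48 with doublets kept, 50 at the expected doublet rate in both libraries, 48 at a minimum of 1000 genes, 49 at resolution 2 and 41 after thinning. With the cluster makeup of each class held equal, also added, 36 of 36 kept it, and in the largest cluster of each class 32 of 36 did, with 12 of 36 moved beyond counting error. Over the alternatives, Gabra2 in inhibitory-like nuclei ranged between 0.08 and 0.85 and Gabra5 between 0.09 and 0.80. Outside their main classes, Gabra3 and Gabrd had too few UMIs for a ratio. No paired analysis was possible because each genotype has 1 library.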
